A study of Mus musculus with 6 samples.

Results

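The genes described here are 6 potassium channel genes of peripheral nerve: Kcna1, Kcna2 and Kcna6, which encode pore-forming alpha subunits of the Shaker (Kv1) family, Kcnab1 and Kcnab2, which encode the beta subunits that bind them, and Kcnj10, which encodes the glial inward rectifier Kir4.1. They were chosen by name, with the differences between icKO and control in these same libraries already known, and were matched by symbol to 6 of the 55335 gene IDs of the deposited table. Their differences between genotypes are therefore given as a description, and no test of them is used as evidence. Sciatic nerve lysates of mice at postnatal day 14 were profiled by sequencing of polyadenylated RNA. The control group (3 libraries) was RhoAfl/fl, homozygous for a floxed allele of the small GTPase RhoA. The icKO group (3 libraries) was RhoAfl/fl ChATCreERT2+, which carries the same floxed alleles plus a tamoxifen-inducible Cre recombinase driven by the choline acetyltransferase gene and so directed to cholinergic neurons such as spinal motoneurons. The labels used here do not state whether or when the inducer was given to either group, nor whether each library is a separate animal. P-values thus reflect only how these samples spread, and that spread may be technical.

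Voltage-gated Kv1 channels are tetramers of alpha subunits, each tetramer carrying beta subunits on its cytoplasmic face. In myelinated axons the channels with Kv1.1 and Kv1.2 subunits (from Kcna1 and Kcna2) lie under the myelin sheath beside the paranode, in the juxtaparanode, where they are held by the adhesion proteins Caspr2 and TAG-1 (from Cntnap2 and Cntn2). Kir4.1 is known for clearing potassium released by active axons into glial cells. Neuronal cell bodies lie outside the sciatic nerve, so the RNA of its lysate comes from Schwann cells, connective tissue, vascular and immune cells and, in small part, from axons. Levels are in FPKM, fragments scaled to transcript length and library size, which allows levels of different genes to be compared.

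The coding stretch of the potassium selectivity filter is shown for the 3 alpha subunits, because it is the part that makes these proteins potassium channels and because fragments from paralogs can be confused where their sequences match. The 63 bases are taken from the coding sequences of GENCODE release M21, 5′ to 3′, and the capitals mark the 15 bases of the filter codons.
Kcna1: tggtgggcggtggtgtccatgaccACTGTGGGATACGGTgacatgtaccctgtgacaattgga
Kcna2: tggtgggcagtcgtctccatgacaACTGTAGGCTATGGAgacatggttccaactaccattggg
Kcna6: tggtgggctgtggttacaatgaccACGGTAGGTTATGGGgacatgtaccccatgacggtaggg
Of these 63 bases, 17 differed between Kcna1 and Kcna2, 15 between Kcna1 and Kcna6 and 18 between Kcna2 and Kcna6. Within the filter codons, 4 bases differed from Kcna1 in Kcna2 and 5 in Kcna6. Over the whole transcripts, the longest stretch identical between Kcna1 and Kcna2 was 20 bases, between Kcna2 and Kcna6 23 bases and between Kcna1 and Kcna6 31 bases. Kcna6 and Kcna5 share an identical run of 91 coding bases, and Kcna2 and Kcnj10 one of 43 bases that lies in their transcripts but not within coding sequence alone. The read length is not given in the sources used here, so how many fragments such runs could shift between these genes was not tested.

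From the smallest steps of the FPKM values, the depth of the libraries was estimated at 17240000 to 20660000 fragments. Rhoa, the floxed gene, was at 36.5, 39.0 and 38.0 FPKM in control replicates 1 to 3 and at 36.4, 33.6 and 33.2 FPKM in icKO replicates 1 to 3, and its difference did not pass (limma, Benjamini-Hochberg adjusted p = 0.195). Chat was at 0.012 FPKM in 1 control library and listed at 0 in the other 5, so these levels check the labels only weakly. Xist, the RNA of the inactive X chromosome, reached 46.1 FPKM in control replicate 2 and no more than 0.028 FPKM in the other 5 libraries, and the Y-linked gene Ddx3y was listed at 0 in the former and at 12.5 to 16.1 FPKM in the latter, so the groups differ in sex makeup. Without that library the differences in log2(FPKM + 1) of Kcna1 and Kcna2 were 1.505 and 1.07, beside 1.53 and 1.07 with it. Control replicate 1 and icKO replicate 3 carried the most skeletal muscle RNA, and the summed level of 10 muscle markers ran from 239 to 1226.5 FPKM in controls, against 9.44 to 1440.5 FPKM in icKO libraries. The 8 markers of myelinating Schwann cells summed to 30245 to 36415 FPKM over the 6 libraries.

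Kcna1 was the member that differed most. This gene of the Kv1.1 subunit was at 39.3, 35.3 and 35.8 FPKM in control replicates 1 to 3 and at 102, 103 and 121 FPKM in icKO replicates 1 to 3. All 3 icKO libraries lay far above all 3 control libraries, and the groups did not overlap. The means were 36.8 ± 2.16 and 109 ± 11.0 FPKM (SD, n = 3 each), a ratio of 2.95 and a log2 difference of 1.53 with an SE of 0.10, log2 standing for log2(FPKM + 1) throughout. In control libraries 92.3% to 93.3% of the tested genes had a lower level than Kcna1, and in icKO libraries 98.0% to 98.4%.

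Kcna2, the gene of the Kv1.2 subunit that joins Kv1.1 in axonal channels, was at 42.1, 39.9 and 37.4 FPKM in controls 1 to 3, against 91.8, 96.7 and 68.0 FPKM in icKO replicates 1 to 3. The groups again did not overlap, and icKO replicate 3 was the lowest of its group, whereas for Kcna1 the same library was the highest. The means were 39.8 ± 2.39 and 85.5 ± 15.4 FPKM (SD, n = 3 each), a ratio of 2.15 and a log2 difference of 1.07 (SE 0.14).

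Kcna6, which encodes a further subunit of the same family, was at 8.29, 7.34 and 7.25 FPKM in controls 1 to 3, against 12.8, 8.01 and 9.32 FPKM in icKO replicates 1 to 3. Its groups overlapped, since icKO replicate 2 lay below control replicate 1. The mean was 7.63 ± 0.58 FPKM in controls, against 10.04 ± 2.46 FPKM in icKO nerves (SD, n = 3 each), and the log2 difference of 0.33 had an SE of 0.16. It was 0.16 without icKO replicate 1, the highest library. An antisense gene annotated across Kcna6, Gm26673, was at 0.007 to 0.024 FPKM in all 6 libraries. The handling of strand is not given in the sources used here, so reads of such a pair cannot be told apart.

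The beta subunits were far less abundant than the alpha subunits. Kcnab2, whose product is the main beta subunit of axonal Kv1 channels, was at 1.83, 1.78 and 2.01 FPKM in controls 1 to 3, against 1.70, 1.33 and 1.91 FPKM in icKO replicates 1 to 3. The groups overlapped, with icKO replicate 2 lowest, and the log2 difference was -0.12 (SE 0.11). It was -0.035 without icKO replicate 2, -0.063 with the muscle covariate, -0.19 without icKO replicate 3 and -0.21 without both muscle-rich libraries. The start of Nphp4, which lies on the other strand, overlaps Kcnab2 in the annotation, and Nphp4 was on average at 5.07 ± 0.38 FPKM in controls, against 3.02 ± 0.21 FPKM in icKO nerves (SD, n = 3 each).

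Kcnab1, the other beta subunit gene of the set, was at 0.261, 0.344 and 0.277 FPKM in controls 1 to 3, against 0.156, 0.223 and 0.116 FPKM in icKO replicates 1 to 3. It was the only member below the filter of a mean of 1 FPKM, and it was not tested. All 3 icKO values lay below the 3 control values. At the length of its coding transcript these levels correspond to an estimated 14.6 to 23.1 fragments per control library and 7.32 to 13.8 per icKO library, so counting error is large. The antisense gene A330015K06Rik within Kcnab1 was at 1.14 to 1.22 FPKM in controls, against 0.487, 1.07 and 0.115 FPKM in icKO libraries, above Kcnab1 in all but icKO replicate 3, and a further antisense gene there, A730090N16Rik, was at 0.039 to 0.083 FPKM in the former and 0.328 to 0.415 FPKM in the latter. The third beta subunit gene, Kcnab3, is no member and also lay below the filter, at 0.280, 0.232 and 0.190 FPKM in controls 1 to 3, against 0.701, 0.707 and 0.731 FPKM in icKO replicates 1 to 3, without overlap.

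Kcnj10, the glial inward rectifier, varied most within a group. It was at 2.10, 2.90 and 2.69 FPKM in controls 1 to 3, against 4.52, 2.68 and 6.50 FPKM in icKO replicates 1 to 3. Replicates 1 and 3 of the icKO group lay above all control libraries, while replicate 2 lay within the control range. The log2 difference was 0.59 (SE 0.25). It depended on single libraries, with 0.86 without icKO replicate 2 (called only there), 0.35 without icKO replicate 3 and 0.25 without both muscle-rich libraries.

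**Figure D1:**
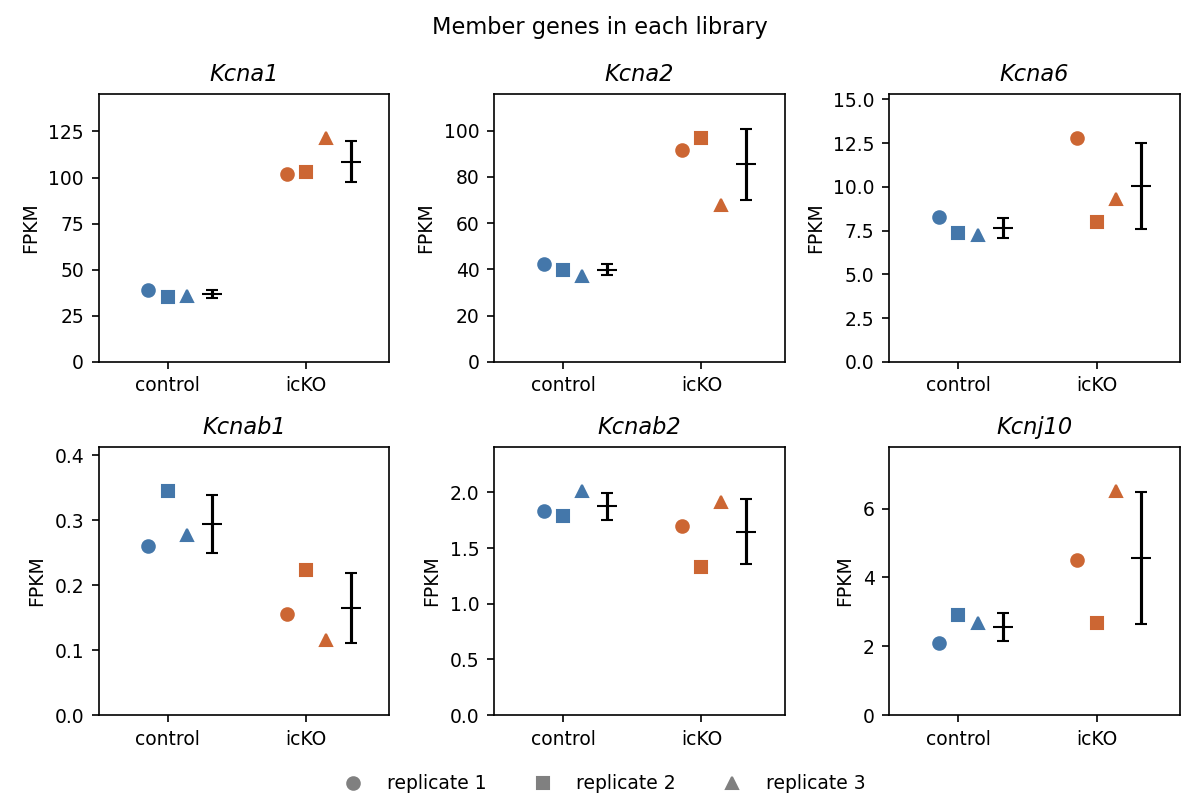
FPKM of the 6 member genes in each library (points, with shapes for replicates 1 to 3), with the mean and SD of each group (black), each panel starting at 0 on its own scale. Kcna1 and Kcna2 were higher in all 3 icKO libraries, Kcnab1 was lower in all 3, and the groups of Kcna6, Kcnab2 and Kcnj10 overlapped.

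Of the 5 members above the filter, 2 (Kcna1 and Kcna2, both higher) were called at an adjusted p under 0.05 and 2 had groups that did not overlap. Over all 12860 tested genes, 42.9% were called, 20.8% as higher and 22.1% as lower in icKO nerves, and 57.2% had groups that did not overlap. The median log2 difference of the 5 members was 0.59, which is the value of Kcnj10, whose groups overlapped, and that of all tested genes was -0.01. As the members were picked from this contrast, nothing is read from their count or their median. In a lysate, fewer cells of a type and less RNA per cell cannot be told apart.

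The order of the levels changed between the groups. In control nerves Kcna2 stood first, with Kcna1 next to it and overlapping ranges (37.4 to 42.1 and 35.3 to 39.3 FPKM), although Kcna2 was the higher of the pair in each of the 3 libraries. In icKO nerves Kcna1 stood first in each library, and the ranges of both genes (102 to 121 and 68.0 to 96.7 FPKM) did not overlap. The ratio of Kcna1 to Kcna2 was 0.932, 0.884 and 0.959 in control libraries and 1.11, 1.06 and 1.78 in icKO replicates 1 to 3. Replicate 3 of the icKO group stood apart from the other 5 libraries in this ratio. Below this pair came Kcna6, then Kcnj10, Kcnab2 and Kcnab1 in every library, with gaps between neighbouring ranges in both groups.

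Summed over all 8 alpha subunit genes of the Kcna family, the level was 91.2, 83.6 and 82.1 FPKM in controls, against 209, 209 and 202 FPKM in icKO libraries. Its spread between libraries of a group was small, with 85.6 ± 4.87 FPKM in controls, against 207 ± 4.12 FPKM in icKO nerves (SD, n = 3 each). Kcna1 and Kcna2 together made up most of this sum. Kcna1 contributed 43.0% ± 0.72 in control and 52.6% ± 6.43 in icKO nerves, and Kcna2 contributed 46.5% ± 1.15 and 41.3% ± 6.69. By library, the Kcna1 share was 42.2% to 43.6% in controls, against 48.8%, 49.1% and 60.0% in icKO replicates 1 to 3. The Kcna2 share was 45.5% to 47.7% in controls, against 44.0%, 46.2% and 33.6% in icKO replicates 1 to 3. Its groups thus overlapped, and icKO replicate 3 was far the lowest. The share of Kcna6 was 8.78% to 9.09% in control and 3.83% to 6.12% in icKO libraries, without overlap. The 3 beta subunit genes summed to 2.40 ± 0.064 FPKM in controls, against 2.53 ± 0.25 FPKM in icKO nerves, so the ratio of alpha to beta transcripts was 35.7 ± 2.66 and 82.5 ± 9.64. Within the beta subunits, the share of Kcnab3 was 7.66% to 11.8% in control and 26.5% to 31.2% in icKO libraries.

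**Figure D2:**
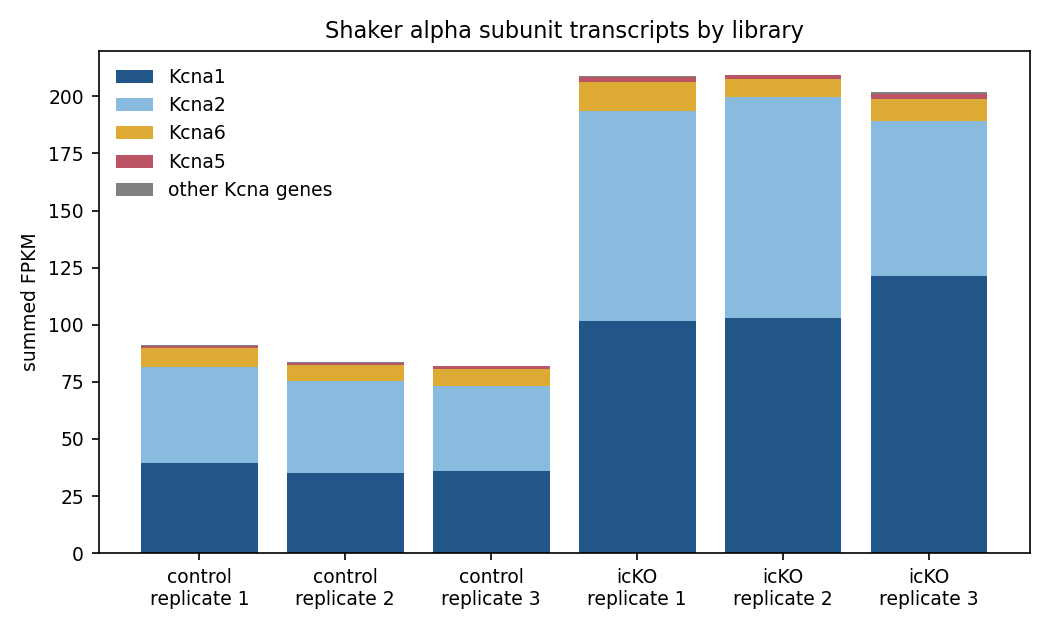
Stacked FPKM of the Kcna alpha subunit genes in each library, from 0. The icKO sums lie between 202 and 209 FPKM and the control sums between 82.1 and 91.2 FPKM, and Kcna1 takes a larger part of the stack in icKO replicate 3 than in the other libraries.

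Potassium channel genes that neighbour members on the chromosome had levels very different from theirs, and most other neighbours were not looked at. In the RefSeq gene order Kcna5, Kcna1 and Kcna6 follow each other on mouse chromosome 6. Kcna5, which encodes a Kv1 subunit found in many cells including glia, was at 0.997, 0.835 and 1.31 FPKM in controls 1 to 3, against 2.08, 1.76 and 2.45 FPKM in icKO replicates 1 to 3, a rise of 0.60 on the log2 scale (SE 0.13, limma, Benjamini-Hochberg adjusted p = 0.0124). It was not called when both muscle-rich libraries were left out. Kcna2 lies between Kcna3 and Kcna10 on chromosome 3, and these were at 0.192 FPKM or less and 0.086 FPKM or less in all libraries. Kcnj9, next to Kcnj10 on chromosome 1, was at 0.021 FPKM or less.

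The remaining potassium channel genes give the setting. Counts per list, here and below, stand beside all tested genes, of which 20.8% were called higher and 22.1% lower. No list was tested against these shares. Of 86 other channel and channel subunit genes listed, 19 passed the filter, and of these 6 rose, 3 fell and 10 did not pass, with a median log2 difference of -0.04. Among voltage-gated genes outside the Shaker family, 6 of 41 were tested, of which 2 rose and 4 did not pass. Kcnip2, an auxiliary subunit gene of Kv4 channels and 1 of those that rose, was at 0.263, 0.257 and 0.206 FPKM in controls 1 to 3, against 2.61, 5.70 and 0.867 FPKM in icKO replicates 1 to 3 (log2 difference 1.52, SE 0.42, limma, Benjamini-Hochberg adjusted p = 0.0264). It passed the filter only through its icKO values, which favours a call as higher, and the call was lost without any 1 control library, without icKO replicate 1 or with no filter. Kcnq3, which encodes a subunit of the axonal M channels, was at 0.028 FPKM or less in all libraries.

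None of the 4 other inward rectifier genes above the filter (Kcnj2, Kcnj8, Kcnj12 and Kcnj13, at 1.88 to 6.17 FPKM) was called. Their log2 differences ran from -0.28 to 0.30, and 0 of the 4 had an unadjusted limma p under 0.05. Kcnj12 was called, as lower, when icKO replicate 1 was left out. Kcnj16, whose product can pair with Kir4.1, was at 0.049 FPKM or less in control and listed at 0 in icKO libraries.

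Two-pore channels carry background potassium current. Of 7 such genes tested, 3 rose, 2 fell and 2 did not pass, beside 20.8% higher and 22.1% lower over all tested genes. Kcnk1 had the highest mean of all potassium channel genes listed, members included, in both groups, at 84.1, 63.9 and 73.7 FPKM in controls 1 to 3, against 178, 213 and 120 FPKM in icKO replicates 1 to 3 (log2 difference 1.16, SE 0.22, limma, Benjamini-Hochberg adjusted p = 0.00661). Kcnk4, the gene of the nodal channel TRAAK, rose from 0.67 ± 0.10 to 2.94 ± 0.94 FPKM (adjusted p = 0.00255), and it too passed the filter only through its icKO values. The gene of the related nodal channel TREK-1, Kcnk2, fell from 3.42 ± 0.91 to 1.59 ± 0.20 FPKM (adjusted p = 0.0117). Kcnk5 fell from 14.2 ± 2.16 to 4.93 ± 0.27 FPKM (SD, n = 3 each, limma, adjusted p = 0.000742). Of the calcium- and sodium-activated channels 1 of 11 genes was tested, the auxiliary subunit gene Kcnmb4, and it fell from 19.8 ± 1.63 to 8.58 ± 1.51 FPKM (adjusted p = 0.00151).

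Genes of potassium pumps and cotransporters, which return potassium into cells, were mostly expressed, and 14 of 19 were tested. Of these 8 rose, 2 fell and 4 did not pass, with a median log2 difference of 0.40. Fxyd1 and Fxyd7, small regulatory subunits of the sodium pump, both rose (SD, n = 3 each). Fxyd1 went from 22.1 ± 1.16 to 43.8 ± 6.71 FPKM (limma, adjusted p = 0.00199), Fxyd7 from 24.5 ± 1.67 to 50.6 ± 12.5 FPKM (adjusted p = 0.00603). Slc12a4, a potassium-chloride cotransporter gene, fell from 49.2 ± 0.84 to 34.7 ± 1.54 FPKM (adjusted p = 0.00294).

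Transcripts of the partners that hold Kv1 channels at the juxtaparanode were partly close to 0 in this tissue. The proteins were not measured. Cntnap2 was at 0.047 FPKM or less and Cntn2 at 0.031 FPKM or less in every library. Dlg4, which encodes the scaffold PSD-95, was on average at 1.05 ± 0.14 FPKM in controls, against 1.10 ± 0.17 FPKM in icKO nerves, and Epb41l3, which encodes protein 4.1B, at 2.75 ± 0.42 and 3.05 ± 0.66 FPKM (SD, n = 3 each). Neither passed (limma, adjusted p = 0.818 and 0.604), and the sign of both small differences turned under some alternatives. Of 14 genes on this list 9 were tested, 2 rose, 1 fell and 6 did not pass. Adam11, whose product is an ADAM-family protein without protease activity that places Kv1 channels at cerebellar terminals, was at 1.86, 2.15 and 1.77 FPKM in controls 1 to 3, against 10.2, 10.1 and 10.4 FPKM in icKO replicates 1 to 3 (log2 difference 1.94, SE 0.08, adjusted p = 0.000242). Adam22 was at 1.98 ± 0.062 FPKM in controls, against 2.37 ± 0.60 FPKM in icKO nerves, and Adam23 at 1.29 ± 0.38 and 1.19 ± 0.36 FPKM. The groups of both overlapped, and neither was called. Lgi4, a secreted Schwann cell ligand of ADAM22, rose from 40.3 ± 1.94 to 72.9 ± 14.1 FPKM (adjusted p = 0.00448). Lgi1 fell from 2.61 ± 0.32 to 1.46 ± 0.59 FPKM (adjusted p = 0.0393), a call lost in 7 of 17 alternatives, among them the fits without control replicate 1, 2 or 3 or without icKO replicate 1 or 2.

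Over these 7 lists, 42 of 119 genes were tested, of which 16 rose, 6 fell and 20 did not pass, and 26 had groups that did not overlap. These are 38.1% higher, 14.3% lower and 61.9% not overlapping, beside 20.8%, 22.1% and 57.2% of all tested genes. Of the 42, 2 (Kcnip2 and Kcnk4) passed the filter only through the icKO group and 1 (Kcne4, not called) only through the controls. The median log2 difference was 0.16, against -0.01 over all tested genes. Without control replicate 2 or without control replicate 3, 10 rose.

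**Figure D3:**
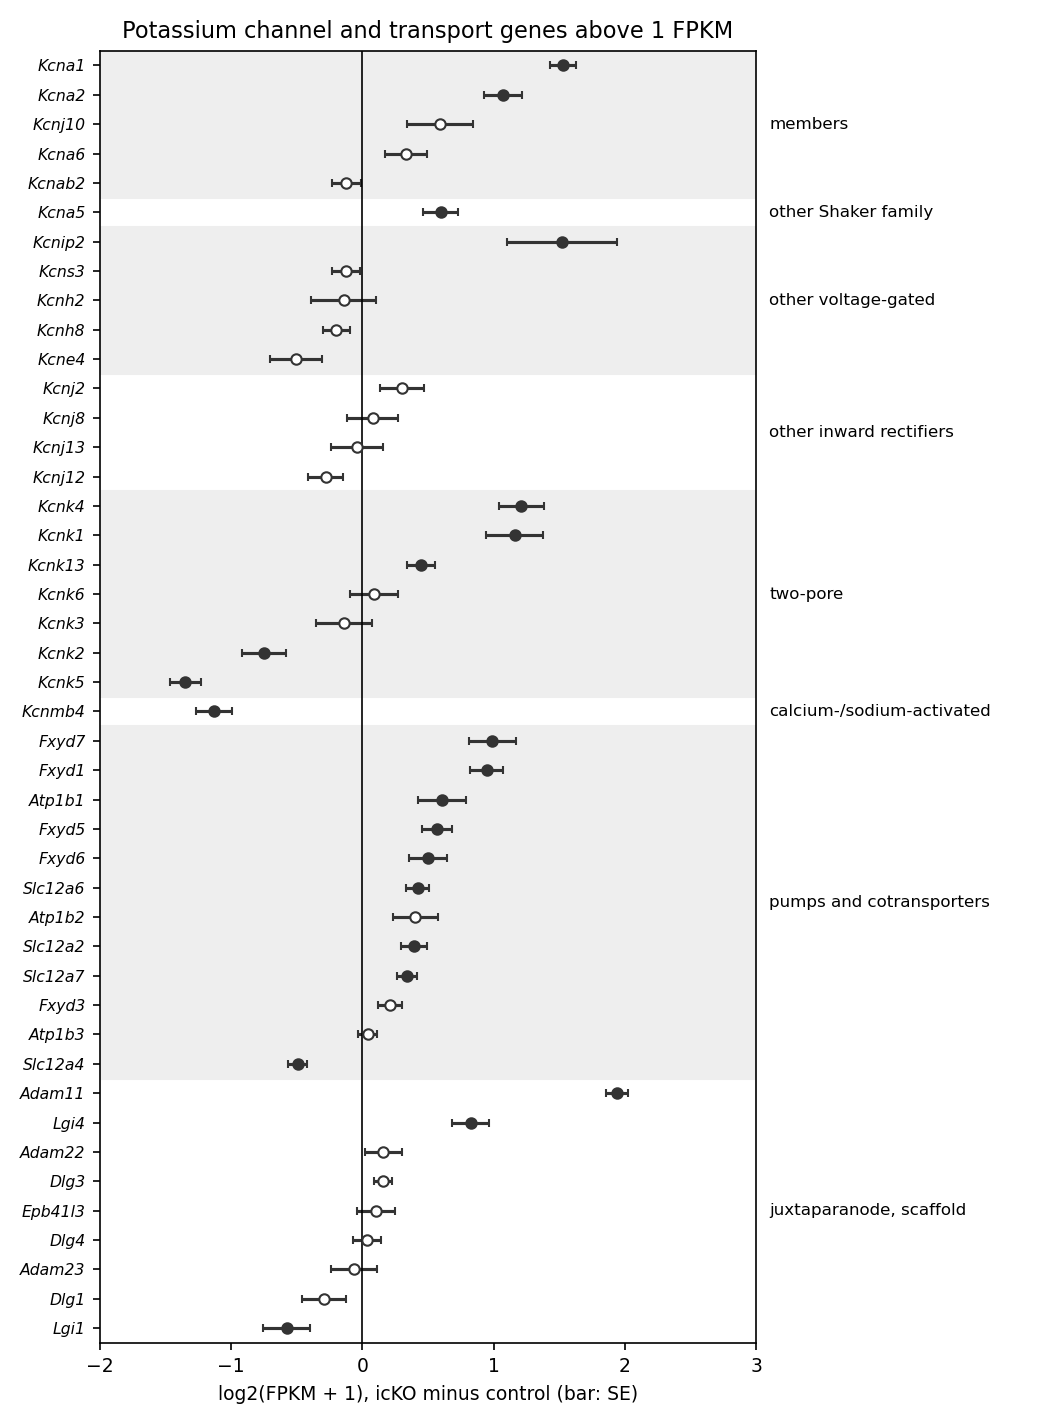
Difference between icKO and control on the log2(FPKM + 1) scale with its SE for the 5 members and 39 of the 42 other genes above the filter, grouped by list, with 3 not shown. Filled points were called at an adjusted p under 0.05. Kcna1 and Kcna2 lie at 1.53 and 1.07, Adam11 at 1.94 and Kcnk5 at -1.35.

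Markers of the cell types in the lysate give the values beside which Kcna1 and Kcna2 stand. The 7 Schwann cell markers summed to 927 to 976 FPKM over the controls, against 923 to 976 FPKM over the icKO libraries, although single members moved, 3 up and 2 down, with S100b on average at 323 ± 29.6 and 88.1 ± 8.69 FPKM. Kcna1 amounted to 3.67% to 4.04% of this sum in control and 10.4% to 12.9% in icKO libraries, and Kcna2 to 3.83% to 4.33% and 7.21% to 10.5%. The 6 markers of nonmyelinating Schwann cells summed to 78.7 to 93.1 FPKM over the controls, against 131 to 172 FPKM over the icKO libraries, with Gfap at 2.64 ± 0.24 and 15.4 ± 8.68 FPKM. Of these 6, 3 rose and 1 fell. Scn7a, the most abundant of them, rose from 44.6 ± 3.99 to 92.2 ± 19.6 FPKM. L1cam fell from 8.38 ± 0.96 to 4.95 ± 0.31 FPKM, and Ngfr and Cdh2 did not pass. The 4 satellite glia markers summed to 96.2 to 107.6 and 221 to 349 FPKM, nearly all of it Glul, which rose and which many cell types express, while Slc1a3 fell and Fabp7, below the filter, ranged over 0.666 to 1.30 FPKM over the controls, against 0.041 to 0.071 FPKM over the icKO libraries. The part of these markers in the differences of Kcna1 and Kcna2 was not tested.

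Neuron and axon markers ranged widely in level and moved in both directions. The 12 neuron and axon markers summed to 49.4 to 52.5 FPKM over the controls, against 50.1 to 63.9 FPKM over the icKO libraries, and 8 passed the filter, of which 5 rose and 1 fell. Neurofilament transcripts were higher in icKO nerves, with Nefl at 2.20, 2.33 and 1.78 FPKM in controls 1 to 3, against 15.4, 9.66 and 12.8 FPKM in icKO replicates 1 to 3, while Uchl1, the most abundant of the 12, fell from 34.7 ± 2.10 to 17.5 ± 1.04 FPKM (SD, n = 3 each). The ratio of icKO to control means was 5.996 for Nefl, 3.88 for Nefm and 3.68 for Nefh, beside 2.95 for Kcna1 and 2.15 for Kcna2. For the other markers above the filter this ratio was lower, at 1.48 for Gap43, 1.32 for Prph, 1.02 for Tubb3, 0.875 for Stmn2 and 0.506 for Uchl1. Of the 4 markers below the filter, Rbfox3, Elavl4 and Syt1 were at 0.109 FPKM or less and Snap25 at 0.463 FPKM or less in all libraries. The part of axonal RNA in the Kcna1 and Kcna2 differences was not tested. Smooth muscle and mural markers, of interest since vessel walls also use potassium channels, summed to 220 to 320 FPKM over the controls, against 156 to 187 FPKM over the icKO libraries, and 3 of 6 fell. Their part in the lower Kcnab1 values was not tested. Adipocyte markers summed to 386 to 488 FPKM over the controls, against 63.3 to 108 FPKM over the icKO libraries, and all 5 fell. Of 5 fibroblast markers 1 rose and 3 fell, of 5 endothelial markers 1 rose and 2 fell, of 10 skeletal muscle markers 1 fell, and of 8 markers of myelinating Schwann cells 1 rose and 2 fell. No perineurial, macrophage or mast cell marker was called by limma, and 1 of these 13 markers, of mast cells, had an unadjusted p under 0.05.

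**Figure D4:**
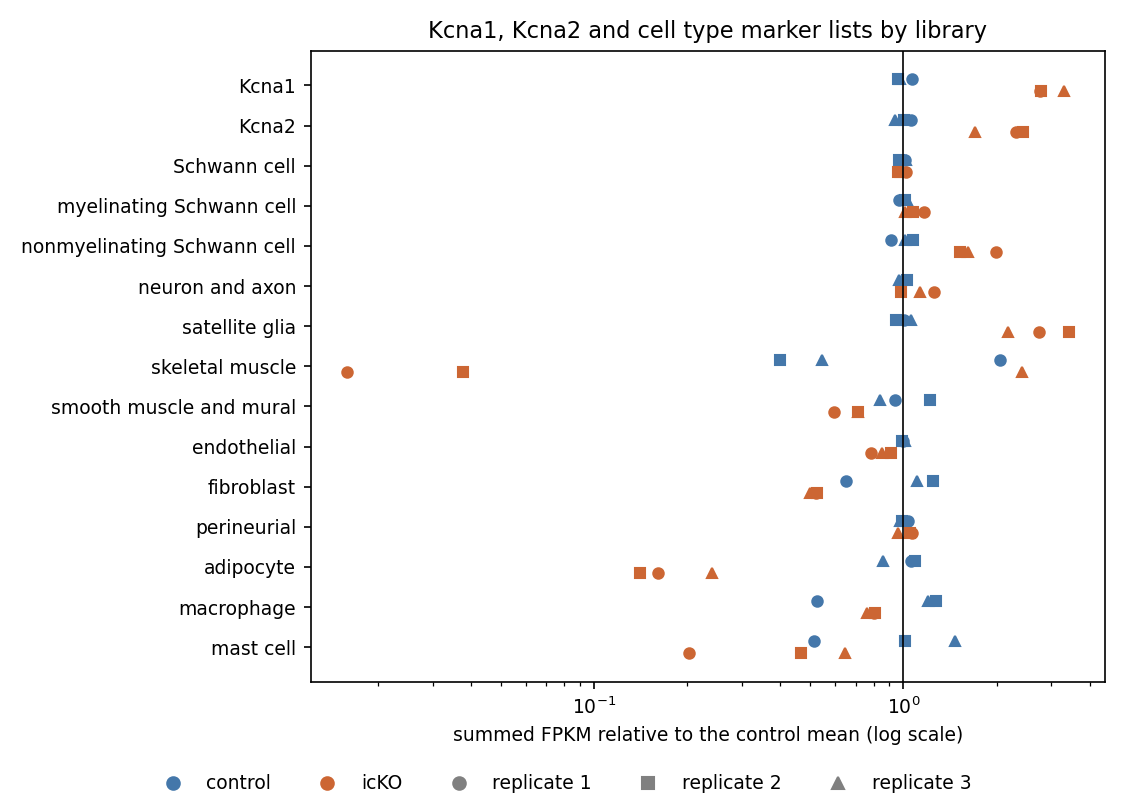
FPKM of Kcna1 and Kcna2 and summed FPKM of 13 marker lists in each library, relative to the control mean (log axis). Points are libraries, with shapes for replicates, and some coincide. The Schwann cell sums lie at the control mean in both groups, while Kcna1 and Kcna2 lie above it in all 3 icKO libraries.

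The genes whose levels followed the members most closely were found by Pearson's correlation of log2(FPKM + 1) over the 6 libraries, which share the group difference, so the values are descriptive. For Kcna1 these were Tmod2 (r = 0.9997), which encodes a cap of actin filament ends and ranged over 26.9 to 30.1 FPKM over the controls, against 63.2 to 72.7 FPKM over the icKO libraries, and Tomm34 (r = 0.999). For Kcna2 they were the gene model Gm12940 (r = 0.9993) and the transcription factor gene Foxo1 (r = 0.999), which like Kcna2 was lowest among icKO libraries in replicate 3, at 12.3 FPKM. Correlations above 0.95 were common, in 953 of 12852 genes for Kcna1 and 828 for Kcna2. For Kcna6 the closest were the gene models Gm42875 (r = 0.992) and Gm11598 (r = 0.989), for Kcnab2 Cox7b, a gene of the respiratory chain (r = 0.992), and Mrpl17, of the mitochondrial ribosome (r = 0.988), and for Kcnj10 Nufip2 (r = 0.998) and Hsp25-ps1 (r = 0.994). Among the members, Kcna1 and Kcna2 had r = 0.92 with each other, Kcna1 and Kcnj10 0.72, and Kcna2 and Kcnab2 -0.71.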

How the data were processed

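Polyadenylated RNA of 6 sciatic nerve libraries was measured, 3 control and 3 icKO, grouped and numbered by the labels. The authors deposited FPKM values for 55335 genes. Per the submitters' processing notes, the tools were STAR, StringTie 1.3.1c, FastQC 0.11.2 and DESeq2 1.16.1 (no roles stated) with build GRCm39. The annotation release, read length and strand handling are unknown. FPKM are scaled to library total and transcript length, so very abundant transcripts lower all others. All 6 columns were matched to samples by name. Symbols came from GENCODE M21 (build GRCm38) for 55154 IDs, and as builds differ no coordinates are given. RefSeq (GRCm38.p6) gave gene order only.

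Depth was estimated over 34186 single-transcript genes as the commonest value, between 35 and 80, of transcript length times FPKM (values below 0.3). No count test was run, since the values are FPKM. Genes whose mean reached 1 FPKM (12860) were tested with limma 3.58.1 (R 4.3.3) on log2(FPKM + 1), with a variance trend, two-sided, and Benjamini-Hochberg adjustment over all of them. Such differences understate changes of low genes. The fit was tested on simulated data. Genes rose or fell where the adjusted p was under 0.05.

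The members and lists were chosen with earlier results of these data known. Named genes are the members, 11 fixed genes and, per list, up to 2 called genes in each direction with the smallest p. The 2 tested genes with the highest correlation with each member are also named. Some genes that this rule names are not reported here. Other genes, and all markers given with values, were chosen after their values were seen. The fit was repeated with a pseudocount of 0.1 or 0.01, without the filter, with a filter of 5 FPKM, with TPM, median-of-ratios or quantile scaling, a replicate block, no variance trend, robust estimation, a muscle covariate, and leaving out single libraries or both muscle-rich ones.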

Additional observations from a re-analysis of the deposited data

How the results depend on the processing

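For the 23 genes above the filter that the naming rule or the member list gives, 383 of 404 alternative fits kept direction and side of the threshold, 15 lost a call, 1 gained one and 5 turned sign. The sign turned for Dlg4 with the muscle covariate (log2 difference -0.014), without control replicate 3 (-2.4e-05) and without icKO replicate 1 (-0.030), and for Epb41l3 without both muscle-rich libraries (-0.11) and without icKO replicate 3 (-0.018). The cause was not tested. Without single libraries, the log2 difference of Dlg4 ran from -0.030 to 0.089 and that of Epb41l3 from -0.018 to 0.22. With a mean of at least 5 FPKM, 6888 genes were tested, so fewer could be called: 1696 rose and 1612 fell, of 2670 and 2846 with the filter used, and 8 rather than 16 potassium pathway genes rose. Leaving out single libraries gave 10 to 17 pathway genes higher and 4 to 8 lower. No scaling moved the median of all genes by over 0.1.

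With the replicate number as a block, 15 pathway genes rose and 6 fell, and 2272 and 2324 of all genes. Deviations from the group means of same-numbered libraries correlated at -0.103, 0.043 and -0.055, so the numbers are not treated as pairs. Genes near 1 FPKM rest on few fragments, and Kcnab1 lies below what these depths measure well.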

Other observations

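Some potassium channel and scaffold genes lay below the filter on low values and yet had groups that did not overlap. They were picked after their values were seen and are not tested. Kcnt1, the gene of a sodium-activated channel, was at 0.268, 0.160 and 0.145 FPKM in controls 1 to 3, against 0.669, 1.37 and 0.755 FPKM in icKO replicates 1 to 3. Kcnd1, of the Kv4 family that binds the product of Kcnip2, was lower, at 0.924, 1.36 and 1.32 FPKM in controls 1 to 3, against 0.790, 0.688 and 0.560 FPKM in icKO replicates 1 to 3. Lgi3, a relative of Lgi4, was at 0.267, 0.244 and 0.276 FPKM in controls 1 to 3, against 1.08, 0.557 and 0.623 FPKM in icKO replicates 1 to 3.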
